A study of Mus musculus with 7 samples.

Results

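Considered here are 9 genes of adrenergic and cyclic AMP (cAMP) signaling in the fat cell: the adrenergic receptor genes Adrb1, Adrb3, Adra1a, Adra1b and Adra2a, and the phosphodiesterase genes Pde3a, Pde3b, Pde4b and Pde4d. They were taken by symbol from the 57010 gene identifiers of an RNA-sequencing count table, all 9 were found, and all 9 were among the 17039 genes abundant enough to be tested. RNA came from mature adipocytes freed by collagenase from perigonadal fat of male mice aged 20 weeks, co-housed littermates on Teklad LM-485 chow. The 3 control libraries were FFA2 fl/fl, with the floxed alleles, and the 4 Adipoq-F2-KO libraries carried these alleles with an Adiponectin-Cre transgene, which deletes FFA2, a receptor for short-chain fatty acids, in cells that express adiponectin. The labels give the controls no Cre, so effects of the transgene and of the deletion cannot be told apart. Samples are numbered within a genotype without a statement that each is 1 animal, so p-values measure the spread between these samples.

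In fat cells, noradrenaline acting on beta-adrenergic receptors raises cAMP through the stimulatory G protein, and cAMP activates protein kinase A, which phosphorylates hormone-sensitive lipase and perilipin and starts lipolysis. Alpha-2 receptors act through inhibitory G proteins and lower cAMP, whereas alpha-1 receptors signal through calcium. Phosphodiesterases of the PDE3 and PDE4 families end the signal by hydrolyzing cAMP, and PDE3B is the form through which insulin restrains lipolysis. FFA2 couples to inhibitory G proteins, and the comparison asked whether adipocytes without it differed in these transcripts.

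Total counts were 30478997 to 39992605 per library, at which a count of 0 allows up to 0.150 to 0.197 CPM (counts scaled to the library total; the limit is 3 fragments, or 6 counts, and covers counting error only). Ffar2, the targeted gene, had 37.5, 33.9 and 32.0 normalized CPM in the controls and 1.15 to 2.58 in the knockout libraries, as labelled. The defining adipocyte marker Adipoq was at 2419 to 3762 normalized CPM in all 7 libraries. Mitochondrial genes took 4.41% to 5.77% of counts in the controls and 6.61% to 10.3% in the knockouts, which do not overlap. The part of this difference in the values of the 9 genes was not tested. Adipoq-F2-KO library 4 stood apart: 15 adipocyte markers summed to 46243 normalized CPM there and to 55669 to 66200 in the other libraries. Its mitochondrial share, 10.3%, was the highest of the 7, above 9.24% in knockout library 3. Library 4 was the lowest or highest of the 7 libraries for 6 of the 9 genes, as was FFA2 fl/fl library 3. Where leaving out library 4 moved a gene's log2 fold change by over 1.5 times or changed its call, the value without it is given, as it is for Adrb3 and Pde3b, in which library 4 was lowest.

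By edgeR's quasi-likelihood test, 0 of the 9 genes passed a Benjamini-Hochberg adjusted p of 0.05, against 1.02% of all tested genes (173 of 17039; 0.798% higher and 0.217% lower in Adipoq-F2-KO). Without Adipoq-F2-KO library 4, 1 of 9 passed, Pde4b, against 0.997% of the genes tested then. At an unadjusted p under 0.05 there were 4 of 9, where the background was 17.9%. DESeq2 called 2 of 9, Pde4b and Pde3a, against 4.58% of the genes to which it gave an adjusted p. With every gene of at least 1 count kept, edgeR called 3 of 9, adding Adrb3, against 4.92%, and limma voom called 0 of 9 against 1.22%.

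The 4 genes with an unadjusted p under 0.05 were also those whose libraries did not overlap between the genotypes. Pde4b and Pde3a were above all controls in 4 of 4 Adipoq-F2-KO libraries, and Adrb3 and Pde3b were below them in 4 of 4. Among all tested genes, 17.6% did not overlap. The median log2 fold change of the 9 genes was -0.17, with 3 higher and 6 lower, beside 0.0037 over all tested genes. Each gene also had an exact permutation test (two-sided, 9 tests), whose smallest possible p with 3 and 4 libraries is 0.0286.

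**Figure D1:**
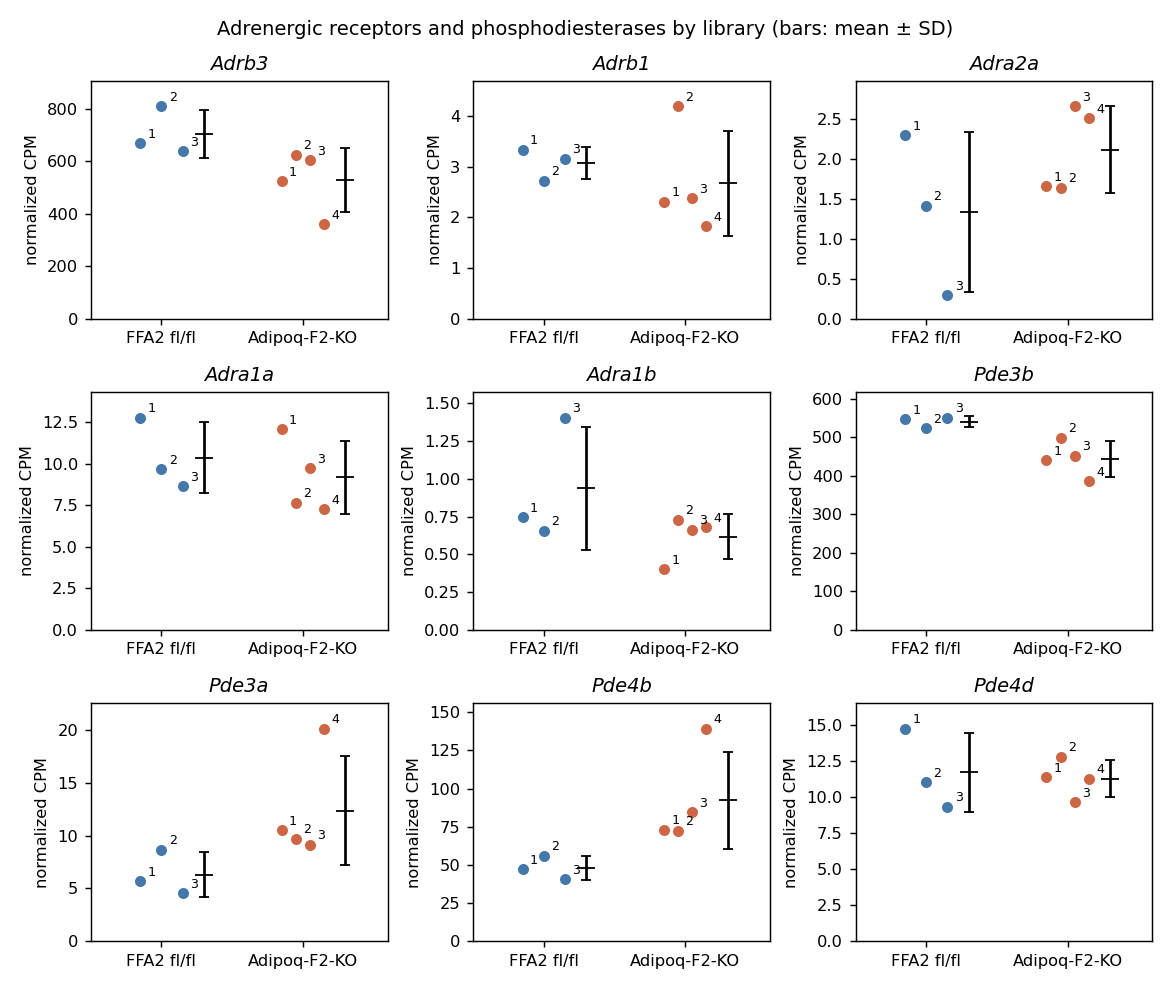
Normalized CPM (vertical axes, each from 0) of the 9 genes in each library, with replicate numbers beside the points and the mean ± SD as bars. The genotypes separate for Adrb3, Pde3b, Pde3a and Pde4b and overlap for the other 5 genes.

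**Figure D2:**
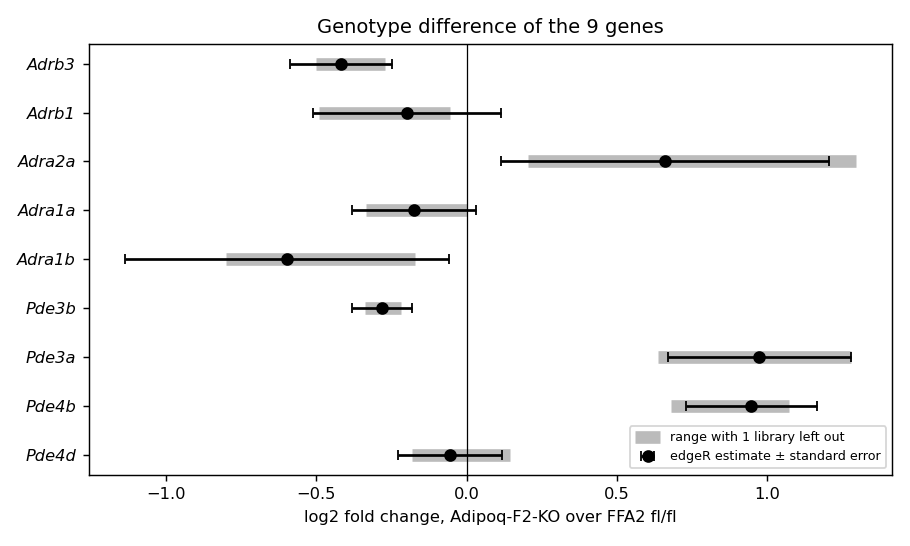
Log2 fold change of Adipoq-F2-KO over FFA2 fl/fl for the 9 genes, as edgeR's estimate with its standard error (points and bars) and the range of estimates with any 1 library left out (grey). The grey ranges of Adra1a and Pde4d reach both sides of 0, and those of the other 7 genes stay on one side.

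Levels were compared between genes per length, as normalized CPM per kilobase of summed exon. Adrb3 was the most abundant of the 9 at a mean of 179 per kilobase, followed by Pde3b at 53.2 and Pde4b at 6.93, in that order in 7 of 7 libraries and without overlapping ranges. The other 6 genes were far lower and lay close together. Adra1a (1.11 per kilobase), Pde4d (0.953), Adrb1 (0.842), Pde3a (0.767), Adra2a (0.368) and Adra1b (0.223) each overlapped its neighbours among these 6.

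Adrb3 (ENSMUSG00000031489, chromosome 8 from 27715804 to 27740644 on the minus strand, in the count table's own coordinates as for all genes here) encodes the beta-3 receptor, the main beta receptor of rodent white fat. It had 670, 810 and 638 normalized CPM in controls 1 to 3, and 524, 626, 605 and 360 in knockouts 1 to 4. Knockout library 2 was just below the lowest control and library 4 was far below it. Means were 706 ± 91.4 (SD, n = 3) and 529 ± 121 (SD, n = 4), the log2 fold change was -0.42 (SE 0.17, edgeR adjusted p = 0.234), and the exact permutation test gave p = 0.0857. Leaving out library 4 gave -0.27 (edgeR adjusted p = 0.277). Gm45470, a gene on the opposite strand, shares 839 bases with the exons of Adrb3 and had 445 to 899 counts against 10616 to 32135 for Adrb3. Whether counting used strand is not stated, so reads in these bases cannot be told apart.

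Adrb1 (ENSMUSG00000035283, chromosome 19 from 56710631 to 56721545), for the beta-1 receptor, which also raises cAMP, was scarce at 54 to 138 counts. It had 3.34, 2.72 and 3.16 normalized CPM in the controls against 2.31, 4.19, 2.38 and 1.83 in the knockouts. Knockout library 2 was the highest of all and library 4 the lowest, so the genotypes overlapped. The log2 fold change was -0.20 (SE 0.31, edgeR adjusted p = 0.784), and with 1 library left out it ranged from -0.49 (without knockout library 2) to -0.057 (without library 4). Adrb3 was 149.6 to 298 times as abundant per length in single libraries.

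Adra2a (ENSMUSG00000033717, chromosome 19 from 54032582 to 54037413) encodes the alpha-2A receptor, which opposes the beta receptors. It had 2.30, 1.41 and 0.293 normalized CPM in the controls against 1.66, 1.64, 2.65 and 2.51 in the knockouts. Control library 3, with 10 counts, was far below the other 6, and the genotypes overlapped. The log2 fold change was 0.66 (SE 0.55, edgeR adjusted p = 0.563), and it ranged from 0.20 without that library to 1.30 without control library 1. The log2 ratio of Adrb3 to Adra2a per length overlapped too, at 8.71 to 11.61 in the controls and 7.68 to 9.09 in the knockouts.

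The alpha-1 receptor genes did not separate the genotypes. Adra1a (ENSMUSG00000045875, chromosome 14 from 66872700 to 67008617) had 12.8, 9.68 and 8.67 normalized CPM in the controls against 12.1, 7.65, 9.73 and 7.26 in the knockouts, with a log2 fold change of -0.17 (SE 0.21, edgeR adjusted p = 0.703) that was -0.077 without knockout library 4 and 0.0027 without control library 1. Adra1b (ENSMUSG00000050541, chromosome 11 from 43665433 to 43792037) was the scarcest of the 9 at 16 to 48 counts, with a log2 fold change of -0.60 (SE 0.54, edgeR adjusted p = 0.600). Control library 3, at 1.41 normalized CPM, was above the other 6 libraries (0.401 to 0.748), and without it the value was -0.17, while it was as low as -0.80 with another library left out.

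Of the 4 other adrenergic receptor genes, 3 were tested and 0 called. Adra1d, for the alpha-1D receptor, had a log2 fold change of -0.60 (edgeR adjusted p = 0.287) and Adra2c, for the alpha-2C receptor, was at 0 to 0.410 normalized CPM. Of the summed per-length level of all 9 adrenergic receptor genes, Adrb3 made up 92.1% to 94.9% in the controls and 89.9% to 93.1% in the knockouts, which overlap.

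Pde3b (ENSMUSG00000030671, chromosome 7 from 114014516 to 114138486) encodes the insulin-activated phosphodiesterase of adipocytes. It had 546, 523 and 551 normalized CPM in the controls and 440, 499, 452 and 385 in the knockouts. The controls lay close together, with every knockout library below them. Means were 540 ± 14.7 (SD, n = 3) and 444 ± 46.7 (SD, n = 4), the log2 fold change was -0.28 (SE 0.099, edgeR adjusted p = 0.176), and the exact permutation test gave p = 0.0571. Leaving out knockout library 4 gave -0.22 (edgeR adjusted p = 0.244).

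Pde3a (ENSMUSG00000041741, chromosome 6 from 141194995 to 141453174) encodes the related enzyme PDE3A, best known from heart, vascular smooth muscle and oocytes. It had 5.66, 8.67 and 4.51 normalized CPM in the controls and 10.5, 9.72, 9.15 and 20.1 in the knockouts. Control library 2 came close to knockout library 3, and library 4 was far above all others. The log2 fold change was 0.97 (SE 0.30, adjusted p = 0.137 in edgeR and 0.0347 in DESeq2), the exact permutation test gave p = 0.0857, and leaving out library 4 gave 0.64 (edgeR adjusted p = 0.217). The opposite-strand gene Gm28523 shares 741 exon bases with Pde3a and had 0 to 14 counts.

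Pde4b (ENSMUSG00000028525, chromosome 4 from 101944740 to 102464456) encodes a cAMP-specific phosphodiesterase that is also prominent in leukocytes, and it had the smallest edgeR p of the 9 genes (rank 294 of 17039). It had 47.0, 55.9 and 40.5 normalized CPM in the controls and 72.9, 72.2, 84.6 and 139 in the knockouts. Every knockout library was above every control, and library 4 was well above the other 3. Means were 47.8 ± 7.71 (SD, n = 3) and 92.2 ± 31.8 (SD, n = 4), the log2 fold change was 0.95 (SE 0.22, adjusted p = 0.0626 in edgeR and 3.7e-04 in DESeq2), and the exact permutation test gave p = 0.0857. Without library 4 the log2 fold change was smaller, 0.68, and passed the threshold (edgeR adjusted p = 0.0346). With any other single library left out, the edgeR adjusted p was 0.0574 to 0.263.

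Pde4b has several transcript starts, which the gene counts add together. RefSeq promoters (GRCm38.p6, 300 bases around a start) matched 5 of the 9 genes, Adrb1, Adra1b, Adra2a, Pde4b and Pde4d, in 9 windows, 4 of them of Pde4b. The cAMP response element is the site through which the factor CREB acts, and its full form TGACGTCA (a palindrome) and short form TGACG were searched on both strands, the full form containing the short one. The full form was in 0 of the 9 windows and in 1.79% of all 32851 promoters. The short form was in 1 window each of Adrb1, Adra2a and Pde4b and in 20.8% of all promoters. The Pde4b window that holds it, chr4:102421305-102421604 on the plus strand, is shown because Pde4b had the smallest p, with the short form in capitals (CGTCA on this strand, at position -34 from the start).
Pde4b: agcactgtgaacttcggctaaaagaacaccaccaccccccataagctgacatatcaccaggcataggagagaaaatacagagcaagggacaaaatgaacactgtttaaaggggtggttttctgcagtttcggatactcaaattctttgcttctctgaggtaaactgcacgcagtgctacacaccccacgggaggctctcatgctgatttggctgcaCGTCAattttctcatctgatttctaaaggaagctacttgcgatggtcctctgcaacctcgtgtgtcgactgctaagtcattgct
A match of letters is a description and does not show binding.

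Pde4d (ENSMUSG00000021699, chromosome 13 from 108586482 to 110089995), for another cAMP-specific enzyme, had 14.7, 11.0 and 9.31 normalized CPM in the controls and 11.3, 12.8, 9.62 and 11.3 in the knockouts. All knockout values lay within the range of the controls. Its log2 fold change, -0.05 (SE 0.17, edgeR adjusted p = 0.902), was the nearest to 0 of the 9. Its partner Pde4b was 3.63 to 5.77 times as abundant per length in the controls and 6.42 to 14.05 times in the knockouts.

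Shares of the summed per-length level of 20 phosphodiesterase genes are given as a description, with no test. The sum includes genes named as phosphodiesterases whose products do not degrade cAMP, such as Pde12 and Pde6d, so these are not shares of cAMP breakdown. Pde3b made up 56.9%, 57.7% and 60.3% in the controls and 50.9%, 54.4%, 51.0% and 42.1% in the knockouts. Pde4b made up 4.23%, 5.32% and 3.83%, and 7.28%, 6.79%, 8.24% and 13.1%. Both shares separated the genotypes, in opposite directions, as did Pde3b and Pde4b themselves. The log2 ratio of Pde3b to the summed Pde4 genes was 2.76 to 3.14 in the controls and 1.31 to 2.49 in the knockouts. These separations restate those of the single genes and are not further evidence. The log2 ratio of Adrb3 to Pde3b, by contrast, overlapped, at 1.65 to 2.06 and 1.33 to 1.85.

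**Figure D3:**
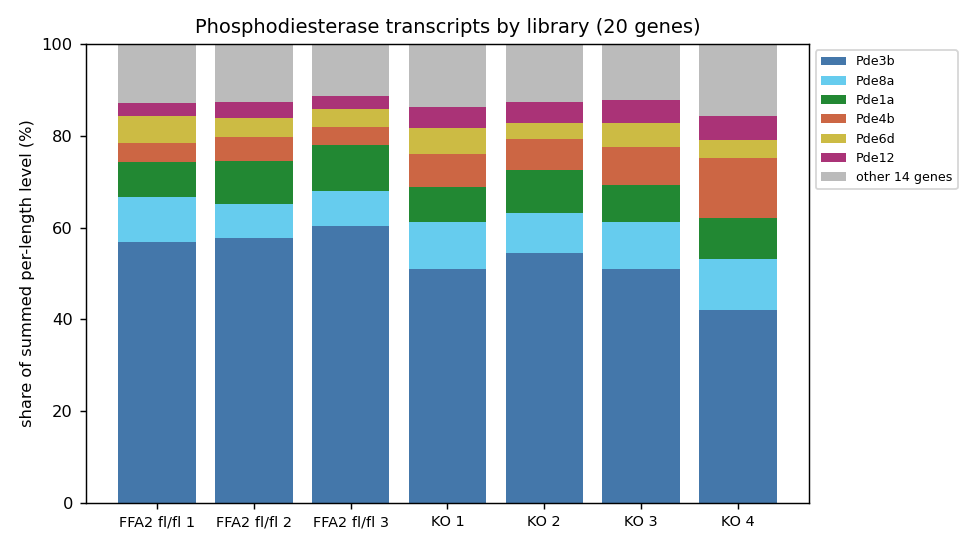
Stacked shares of the 6 most abundant genes and of the other 14 in the summed per-length level of 20 phosphodiesterase genes (percent, vertical axis) in each library, with KO for Adipoq-F2-KO. The Pde3b share is 56.9% to 60.3% in the controls and 42.1% to 54.4% in Adipoq-F2-KO, and the Pde4b share is 3.83% to 5.32% and 6.79% to 13.1%.

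Transcripts of other cells were measurable in the isolated adipocytes and 4 of their sums, like those of the adipocyte markers, did not overlap between the genotypes. In bulk samples, fewer cells of a type and less RNA per cell cannot be told apart. The 18 macrophage markers summed to 670 to 806 normalized CPM in the controls and 893 to 1076 in the knockouts, with 16 of 18 higher and 2 called (Cd68 and Lyz2). The 12 endothelial markers summed to 1264 to 1646 and 1739 to 2809, with 12 of 12 higher and 0 called. Both sums were highest in knockout library 4, where Pde4b and Pde3a were highest. Fibroblast progenitor markers summed to 878 to 1183 and 1281 to 1561, with 10 of 11 higher and 0 called. Adipocyte markers went the other way, as did Adrb3 and Pde3b, at 60011 to 66200 and 46243 to 59983, with 14 of 15 lower and 0 called. The part of these shifts in the values of the 9 genes was not tested.

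In 6 further lists 0 genes were called. Smooth muscle and pericyte markers summed to 1245 to 1428 and 1349 to 1910 normalized CPM, with 7 of 10 higher. Neutrophil markers summed to 8.06 to 10.3 and 12.3 to 14.9, which do not overlap. Only 3 of these 7 markers were abundant enough to be tested, with 2 higher and 1 lower. S100a9 was at most 0.339 normalized CPM and Ly6g at 0 counts in all 7 libraries. T and B cell markers (1.64 to 17.1 and 1.73 to 9.15) and mesothelial markers (10.6 to 25.5 and 7.30 to 10.8) overlapped, as did genes induced by tissue dissociation (13327 to 16651 and 13653 to 15363, median log2 fold change 0.02). Epididymis and germ cell markers were at 110 normalized CPM in knockout library 2 and at most 12.4 in the other 6 libraries, with Lcn5 at 0 counts.

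Scaling the libraries to the adipocyte markers alone moved the median log2 fold change of all genes to 0.24. On that scale Adrb3 had -0.20, Pde3b -0.05, Pde3a 1.25 and Pde4b 1.21, and Pde4b was called (edgeR adjusted p = 0.0472), where 2.41% of all tested genes were. Relative to the median of all genes on that scale, the same 4 values were -0.44, -0.29, 1.01 and 0.97. Subtracting the median takes out the shift that this scaling gives to all genes. Values close to those first reported were therefore fixed in advance and are not further evidence.

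**Figure D4:**
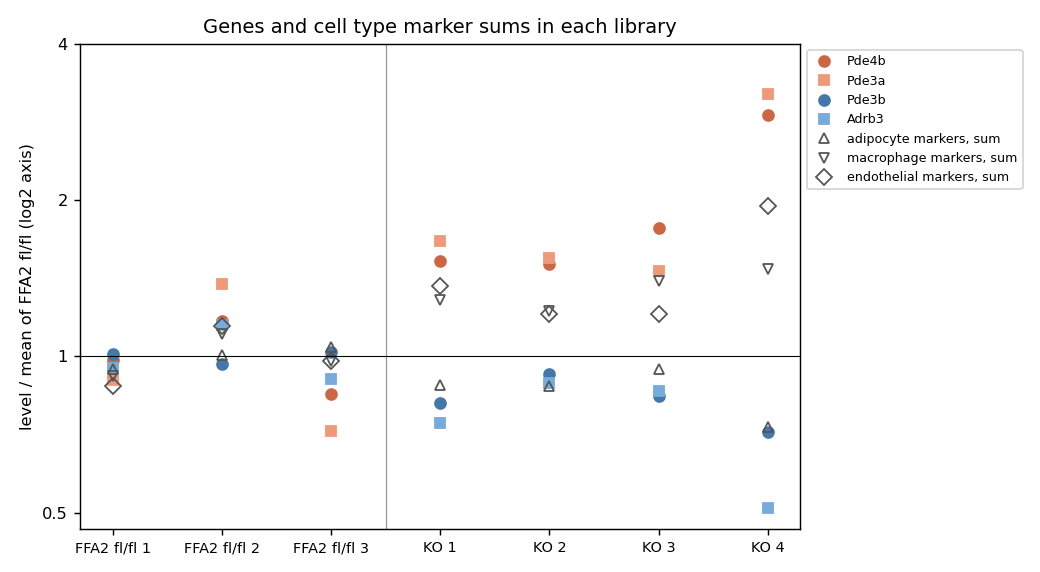
Level of 4 of the genes (filled) and summed level of 3 cell type marker lists (open) in each library, divided by the mean of the FFA2 fl/fl libraries, on a log2 axis, with KO for Adipoq-F2-KO. Pde4b and Pde3a are above 1 in all 4 Adipoq-F2-KO libraries together with the macrophage and endothelial sums, and Adrb3 and Pde3b are below 1 together with the adipocyte sum, all farthest in library 4.

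Related genes of the pathway were described by 6 lists, in which 2 of 78 tested genes were called, beside 1.02% of all tested genes. Rapgef3, for the cAMP sensor EPAC1, fell, with 61.3, 70.3 and 66.3 normalized CPM in the controls and 50.8, 44.0, 49.1 and 39.9 in the knockouts (log2 fold change -0.52, SE 0.11, edgeR adjusted p = 0.0475). Pde12 rose, with 23.2, 27.2 and 21.998 normalized CPM and 32.7, 36.2, 36.2 and 39.4 (log2 fold change 0.58, SE 0.11, edgeR adjusted p = 0.0418). Pde12 encodes a mitochondrial enzyme that acts on RNA rather than cAMP, and Pde6d of the same list encodes a carrier of lipid-modified proteins. Neither was called when any control or knockout library 2 or 3 was left out or with a replicate block, nor was Pde12 without knockout library 4 or Rapgef3 when scaled to the adipocyte markers.

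Among the other phosphodiesterase genes, 11 of 15 tested were higher and 4 lower (median log2 fold change 0.22). The most abundant per length after Pde3b were Pde8a and Pde1a, with 0.22 and -0.12 (edgeR adjusted p = 0.416 and 0.628). In the list of cAMP synthesis and protein kinase A genes, 9 of 24 tested were higher and 15 lower (median -0.04). Its most abundant were Prkar2b, a regulatory subunit of protein kinase A (-0.23, edgeR adjusted p = 0.472), and the inhibitory G protein subunits Gnai1 and Gnai2 (-0.06 and 0.06, edgeR adjusted p = 0.843 and 0.794).

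Lipolysis genes had 2 of 10 higher and 8 lower (median -0.18) with 0 called, led by the fatty acid carrier Fabp4 (-0.0062), the lipid droplet gene Cidec (-0.40) and Pnpla2, for adipose triglyceride lipase (-0.24). Fabp4, Cidec and Pnpla2 are also among the 15 adipocyte markers, so these lists are not independent. The other lipolytic and antilipolytic receptors had 4 of 13 higher and 9 lower (median -0.08) with 0 called, led by the natriuretic peptide clearance receptor Npr3 (-0.08), the succinate receptor Sucnr1 (-0.06) and the niacin receptor Hcar2 (-0.06). Adora1, for an adenosine receptor, had -0.47 (edgeR adjusted p = 0.0556). Lipe, for hormone-sensitive lipase, had -0.40 (edgeR adjusted p = 0.104). DESeq2 called both. Adora1 was also called by limma voom, with the filter of at least 1 count, with halved counts and with the replicate block. It was not called when scaled to the adipocyte markers, and neither gene was called with any library left out. The level of cAMP itself was not measured. Transcripts that cAMP induces had 11 of 13 higher and 2 lower (median 0.40) with 0 called, and 10 of 13 at an unadjusted p under 0.05 beside the background of 17.9%. Of those 10, 8 were higher and 2 lower. An excess over that background was not particular to this list. At the same threshold there were 10 of 12 endothelial, 13 of 18 macrophage and 7 of 15 adipocyte markers. Among the related lists there were 4 of 10 lipolysis genes, but 2 of 15 other phosphodiesterase genes. The sum of all 13 cAMP-induced transcripts was lower in the knockouts, at 3190 to 4642 normalized CPM against 4820 to 5226 in the controls. The most abundant of these did not go one way: Pck1, for the enzyme PEPCK, had 3227 to 3530 normalized CPM in the controls and 1293 to 2763 in the knockouts (log2 fold change -0.68, edgeR adjusted p = 0.113), while the nuclear receptor gene Nr4a1 had 0.24 and the insulin receptor substrate gene Irs2 0.0035 (edgeR adjusted p = 0.261 and 0.995).

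**Figure D5:**
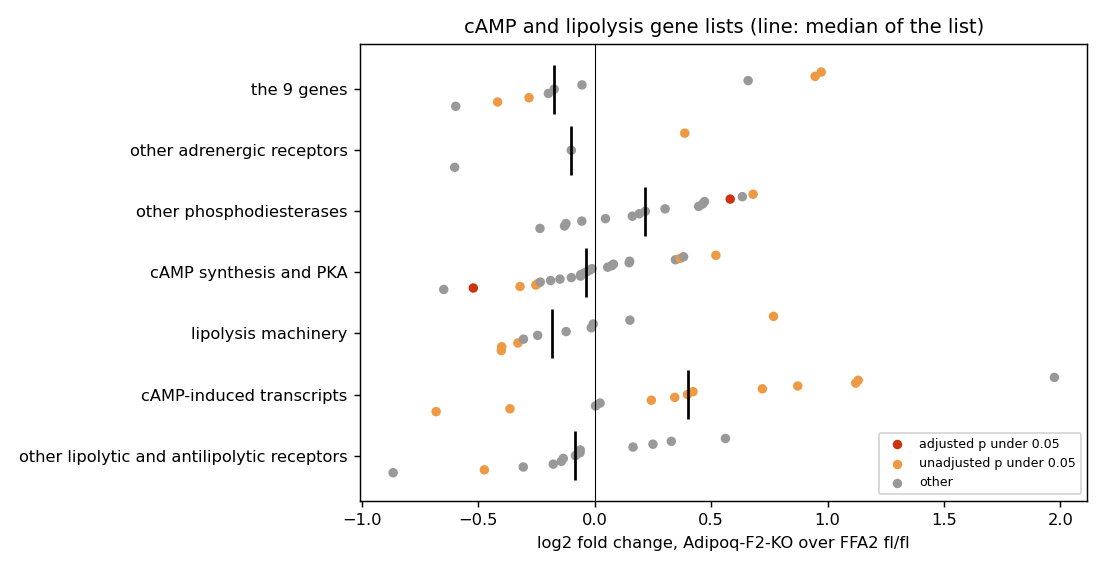
Log2 fold change of Adipoq-F2-KO over FFA2 fl/fl (horizontal axis) for each tested gene of the 9 genes and of 6 related lists, with the median of each list as a black line and genes colored by edgeR p. The 2 genes with an adjusted p under 0.05 are Pde12 and Rapgef3, and the list medians run from -0.18 in the lipolysis list to 0.40 in the cAMP-induced list.

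Over the 7 libraries, the genes whose log2 CPM was most like that of Adrb3 were Tmem88b (Pearson's r 0.992), Jun (0.985) and Htra2 (0.984), among 13508 genes compared. For Pde3b they were Evc2 (0.991), Apol6 (0.989) and Zbtb16 (0.979). Adrb3 and Pde3b had an r of 0.871 with each other. These values pool both genotypes and share the low knockout library 4, and 29 genes for Adrb3 and 79 for Pde3b exceeded an r of 0.95.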

How the data were processed

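The authors' stranded, poly-A selected, paired-end reads were trimmed (Trimmomatic), aligned (STAR) and assigned to genes (featureCounts). The deposited values are raw counts without normalization, with summed exon lengths. Versions, strand and pairing options are not given in the sources used here. The submitters' processing notes name GRCm38, but the table's coordinates differ from it, so they are given without a build. Symbols were matched for 52029 of 57010 identifiers.

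Counts were filtered with filterByExpr, scaled by TMM and tested with edgeR 4.0.16 (quasi-likelihood, two-sided, genotype only, R 4.3.3) with Benjamini-Hochberg adjustment over 17039 genes. SE is the log2 fold change over the square root of F. DESeq2 1.42.0 and limma 3.58.1 were alternatives, with other scaling and filters, halved counts (most low counts are even, 85.5% to 88.8%), a replicate block and each library left out. Scripts were tested on simulated counts. Libraries of a genotype differed beyond sampling noise, so all 7 were kept.

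The genes and lists were chosen with earlier results of these data known. Named were the 9 genes, Ffar2, defining markers, called genes and the 3 most abundant per length of each related list, and the 3 genes most like Adrb3 and Pde3b (mean of 1 CPM or more). Genes overlapping the 9, S100a9, Ly6g, Lcn5, Adora1 and Lipe were named after their values were seen. A gene that this rule would name is not reported here.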

Additional observations from a re-analysis of the deposited data

Results flagged for a closer look

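Among 47 sets of 4 Adipoq-F2-KO values, 3 held a library whose gap to the nearest other, divided by the range, passed Dixon's 95% critical value. Chance alone gives about 1 in 20. Pde3a was highest in library 4 (20.1 normalized CPM against 9.15 to 10.5), with a gap of 0.879 of the range. Npr3 was lowest in library 4 (973 against 1381 to 1436), with a gap of 0.882. The summed epididymis and germ cell markers were highest in library 2 (110 against 2.11 to 12.4), with a gap of 0.904.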

How the results depend on the processing

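Over 15 alternatives, 129 of 135 log2 fold changes of the 9 genes kept their sign. The number of the 9 genes called was 0 as reported, 3 with a filter of at least 1 count, 2 with DESeq2, 1 when scaled to adipocyte markers and 0 to 1 with a library left out. Over all genes it was 173 (136 higher and 37 lower), then 1403, 869, 411 (401 higher and 10 lower) and 1 to 178. Over the related lists it was 2, then 11, 8, 3 and 0 to 3, with 4 in limma voom. Called genes over all genes numbered 1, 41 and 5 without FFA2 fl/fl libraries 1, 2 and 3, and 11 and 20 without Adipoq-F2-KO libraries 2 and 3. Scaled to adipocyte markers, Adrb1 (0.027), Adra1a (0.033) and Pde4d (0.18) changed sign, where the median of all genes was 0.24. With a library left out, Adra1a ranged from -0.34 to 0.0027 and Pde4d from -0.18 to 0.14, positive without FFA2 fl/fl library 1 and, for Pde4d (0.014), without Adipoq-F2-KO library 3. The cause was not tested.

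Same-numbered samples did not deviate together (correlations -0.0242 to 0.0315, beside -0.0957 to 0.0861 for differently numbered pairs across the genotypes). This gives no sign that the numbers pair the samples, but such correlations cannot exclude a pairing. With the replicate number as a block, 1 of the 9 genes was called, Pde4b (log2 fold change 0.69, edgeR adjusted p = 0.0460), and 224 genes in all. Low counts of Adra1b, Adra2a and Adrb1 limit what could be detected.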
